A study of Mus musculus with 27 samples.

Results

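Trpc2 and H2-M9 are a pair of genes best known from the sensory neurons of the vomeronasal organ, and their expression was followed here in mouse olfactory mucosa after closure of a nostril. They were taken as all probes of the array that its annotation assigns to either symbol, which gave 2 of 29922 probes, 1 for each gene. The mucosa came from female FVB mice aged 25 days. In occluded mucosa the naris of the same side had been closed by cautery, open mucosa came from the other side of the same individuals, and normal mucosa came from other mice, which the labels give a sham cautery on the muzzle and the design text calls untreated. Each group had 3 biological replicates, and each replicate had been hybridised to 3 arrays, so that 27 arrays gave 9 replicate values. The labels do not say at what age the naris was closed, or whether the vomeronasal organ, which lies at the base of the nasal septum, was kept out of the dissection. The pair was selected on its measured levels in the 3 groups, which were known when it was chosen, so their levels and differences are descriptions, and no test is given for them.

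Vomeronasal neurons detect pheromones and other social cues. Receptors on their microvilli act through a G protein and phospholipase C, and the cation channel encoded by Trpc2 opens as a result and depolarises the cell. Cells of the apical layer carry type 1 receptors with Gnai2, and cells of the basal layer carry type 2 receptors with Gnao1. H2-M9 belongs to the H2-Mv group of MHC class Ib genes, which are transcribed in basal vomeronasal neurons. Trpc2 is also used by some neurons of the main olfactory epithelium, among them cells that carry the guanylyl cyclase subunit gene Gucy1b2, so a Trpc2 signal in olfactory mucosa does not by itself name the vomeronasal organ.

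In the GRCm38.p6 assembly of RefSeq, Trpc2 lies at chr7:102083116-102096864 and H2-M9 at chr17:36639285-36642663. Trpc2 lies within Xntrpc (chr7:102065491-102096864), a gene that joins exons of Xndc1 (chr7:102065491-102083762) to those of Trpc2. Xndc1 reaches into the start of Trpc2, so the Trpc2 window printed below lies within both Xndc1 and Xntrpc. Where in the gene the array's probe sits was not analysed here, so Trpc2 and Xntrpc transcripts cannot be told apart. H2-M1, another H2-Mv gene, lies nearby at chr17:36669030-36672197. The 250 bases before the start site are shown for both genes, since their differences between the groups had the same sign, and for H2-M1 as the close relative that the array also measured.
Trpc2, chr7:102082866-102083115, plus strand: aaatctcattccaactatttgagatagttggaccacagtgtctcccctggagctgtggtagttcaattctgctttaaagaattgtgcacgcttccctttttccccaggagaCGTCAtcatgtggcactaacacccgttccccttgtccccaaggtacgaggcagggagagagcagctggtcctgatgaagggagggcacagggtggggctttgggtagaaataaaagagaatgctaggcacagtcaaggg
H2-M9, chr17:36642645-36642894, minus strand: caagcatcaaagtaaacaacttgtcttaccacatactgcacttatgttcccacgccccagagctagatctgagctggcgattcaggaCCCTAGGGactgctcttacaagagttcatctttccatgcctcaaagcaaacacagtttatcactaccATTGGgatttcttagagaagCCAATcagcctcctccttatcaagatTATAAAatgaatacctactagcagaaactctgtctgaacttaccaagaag
H2-M1, chr17:36672198-36672447, minus strand: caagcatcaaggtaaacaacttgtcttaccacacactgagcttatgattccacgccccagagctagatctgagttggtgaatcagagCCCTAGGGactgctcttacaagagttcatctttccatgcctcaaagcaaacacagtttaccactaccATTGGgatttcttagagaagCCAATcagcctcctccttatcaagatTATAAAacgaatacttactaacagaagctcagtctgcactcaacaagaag
Capitals mark motif matches on either strand, and the motifs were picked with the sequences in view. Trpc2 held 1 match to the core of a cAMP response element, TGACG, which was present in 17.8% of 32851 RefSeq windows of this length. H2-M9 and H2-M1 each held 1 match to the core of an Ebf site, CCCNNGGG, present in 11.8% of windows. They each held 2 matches to the inverted CCAAT box, ATTGG, present in 33.8%, and 1 to the TATA box, TATAAA, present in 12.4%, all at the same distances from the start. No match to the longer Ebf motif (0.779% of windows), the full cAMP response element (1.55%) or the homeodomain core TAATTA (4.84%) was found in the 3 windows. For H2-M9 the later of 2 listed start sites is shown, because its window lines up with that of H2-M1, and 230 of 250 bases (92.0%) were equal without gaps. None of the 4 motifs marked in Trpc2 and H2-M9 occurred in both.

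Both genes could be read on all 27 arrays. The Trpc2 probe lay between 10.01 and 41.5 times the noise limit of its array, which is 3 times the root mean square of the values below 0, and the H2-M9 probe between 18.0 and 100.1 times. No array was saturated for either. As deposited, Trpc2 had a lowest, median and highest intensity of 273, 415 and 596 on the 9 occluded arrays, of 133, 237 and 317 on the open arrays and of 219, 261 and 321 on the normal arrays. H2-M9 had 419, 862 and 1367 on the occluded arrays, 319, 588 and 875 on the open arrays and 397, 478 and 792 on the normal arrays. The medians of whole arrays also differed, from 123 to 274, so levels are given below as log2 intensity after quantile normalization.

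Trpc2 was highest on the occluded side. Its log2 intensity was 8.40, 8.82 and 8.61 in occluded replicates 1 to 3, against 7.81, 7.61 and 7.89 in open and 8.27, 7.84 and 8.27 in normal replicates. Each of the 3 occluded values thus lay above all 6 others, while open and normal values overlapped. The group means were 8.61 ± 0.21 on the occluded side, 7.77 ± 0.14 on the open side and 8.12 ± 0.25 in normal mucosa (SD, n = 3 each). Occluded exceeded open mucosa by 0.84 ± 0.17 (SE) on the log2 scale, or 1.79-fold, and normal mucosa by 0.48 ± 0.22, or 1.40-fold. The SE here and below comes from a fit of all probes together, which shares spread and 1 correlation between probes. It can be smaller than a gene's own replicates would give. Open minus normal mucosa was -0.35 ± 0.22. In this bulk tissue, more cells with the transcript and more transcript per cell cannot be told apart.

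H2-M9 had the same order of groups. Its log2 intensity was 10.08, 9.38 and 9.80 in occluded replicates, against 9.07, 9.25 and 8.66 in open and 9.25, 8.94 and 9.22 in normal replicates. The lowest occluded value, that of replicate 2, lay 0.13 above the highest open and the highest normal value. The group means were 9.76 ± 0.35 on the occluded side, 8.996 ± 0.30 on the open side and 9.14 ± 0.17 in normal mucosa (SD, n = 3 each). Occluded exceeded open mucosa by 0.76 ± 0.21 (SE) on the log2 scale, or 1.69-fold, and normal mucosa by 0.62 ± 0.27, or 1.53-fold. Open minus normal mucosa was -0.14 ± 0.27, with overlapping groups. For both genes the next group in the order, normal, did not differ from open beyond the overlap of their replicates.

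**Figure D1:**
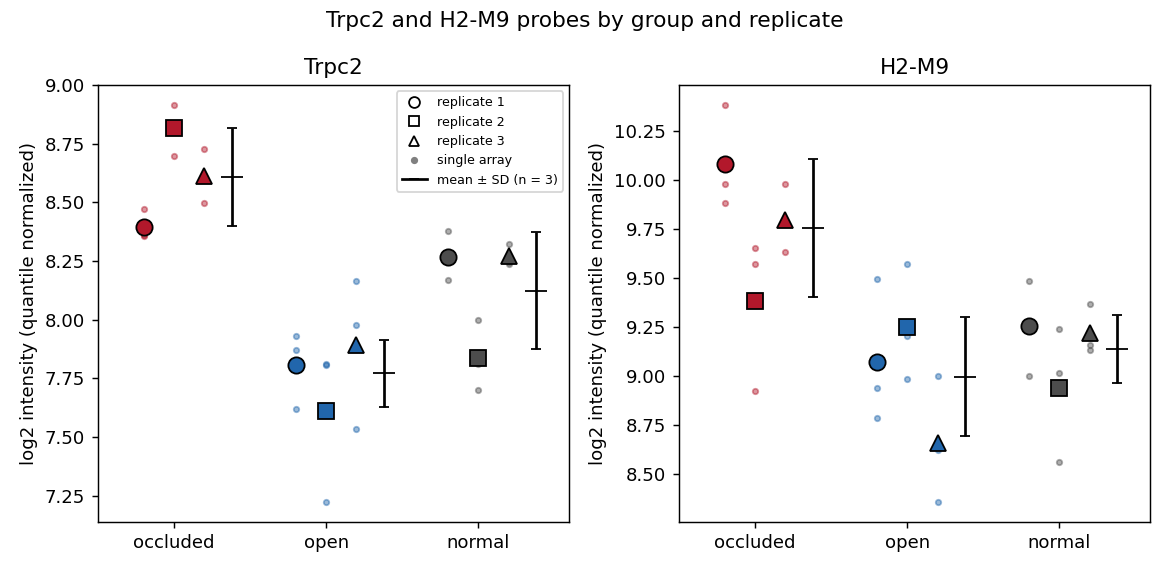
Log2 intensity after quantile normalization of the Trpc2 probe (left) and the H2-M9 probe (right) in occluded, open and normal mucosa. Large symbols are the 3 replicates of a group, small dots their 3 arrays, and bars the group mean ± SD. All 3 occluded replicates lie above the 6 others for both genes, with a smallest gap of 0.13.

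The separation of the occluded replicates is read against its frequency among all probes. The 3 occluded values lay above the 3 open values for 3.76% of the 29922 probes and above the 3 normal values for 3.57%, and above both groups together for 399 probes, or 1.33%. Since the genes were picked with these values known, nothing follows from 2 of 2 meeting it. The comparisons with open and with normal mucosa share the occluded samples and are not independent of each other. In the fit over all probes with Benjamini-Hochberg adjustment at 0.05, limma called 0.221% of probes (53 or 0.177% higher, 13 or 0.0434% lower) between occluded and open mucosa, 0.00668% between occluded and normal and 0% between open and normal mucosa, where 477 had an unadjusted p under 0.05. Unadjusted p-values under 0.05 made up 6.19% of probes between occluded and open, 2.88% between occluded and normal and 1.59% between open and normal mucosa, the background for the counts of listed genes given below. With the replicate number as a fixed block in place of a random one, 2 probes were called between occluded and open and 0 between occluded and normal mucosa.

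Within the replicate numbers, which for the sides of the nose are read as the individual, the difference had 1 sign but not 1 size. Trpc2 on the occluded side exceeded that on the open side by 0.59, 1.20 and 0.72 for numbers 1, 2 and 3. H2-M9 did so by 1.01, 0.13 and 1.14. Number 2 thus had the largest difference for Trpc2 and the smallest for H2-M9. Against the normal replicate of the same number, which comes from other mice, the occluded excess was 0.13, 0.98 and 0.34 for Trpc2 and 0.83, 0.44 and 0.58 for H2-M9. Open minus normal mucosa was below 0 for all 3 numbers for Trpc2 (-0.46, -0.22 and -0.38) and had mixed signs for H2-M9 (-0.18, 0.31 and -0.56).

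**Figure D2:**
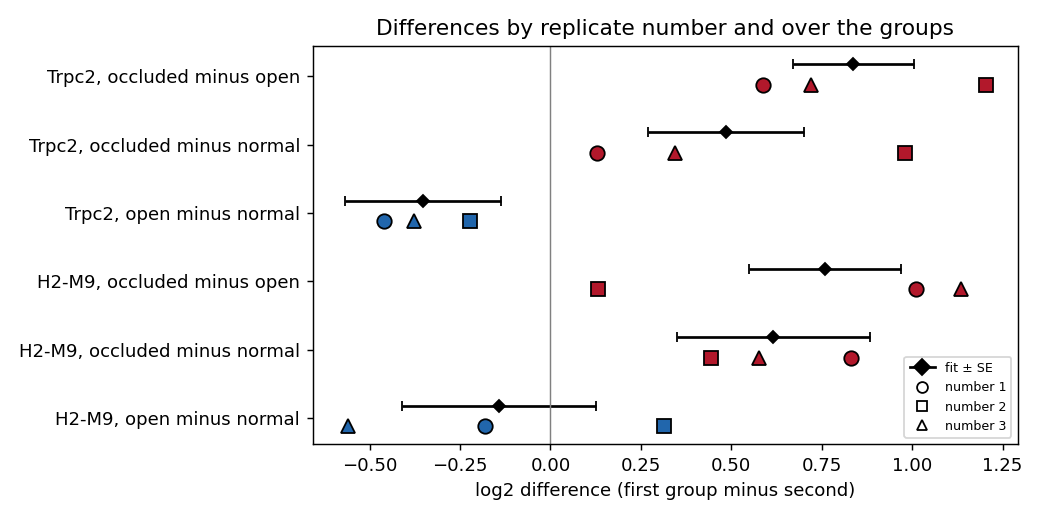
Log2 differences of Trpc2 and H2-M9 for each pair of groups (rows), first group minus second. Diamonds with bars are the fitted difference ± SE and the other symbols the differences between replicates of the same number, which are read as 1 individual for occluded minus open and come from different mice in the comparisons with normal; occluded minus open is above 0 for every number, at 0.13 to 1.20.

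The repeat arrays of a replicate spread differently for the 2 genes. The SD over the 3 arrays of a replicate was 0.065 to 0.11 on the log2 scale in occluded, 0.17 to 0.34 in open and 0.047 to 0.15 in normal replicates for Trpc2. For H2-M9 it was 0.18 to 0.40 in occluded, 0.30 to 0.37 in open and 0.13 to 0.35 in normal replicates, about as large as the SD between replicates. Taking the arrays of letter a, b or c alone, Trpc2 differed between occluded and open mucosa by 0.75, 1.01 and 0.75, with no overlap in any of the 3. H2-M9 differed between them by 0.89, 0.62 and 0.77, and the groups overlapped with letters b and c. Between occluded and normal mucosa H2-M9 differed by 0.60, 0.23 and 1.01, and the groups overlapped with letter b. With letter b, open minus normal mucosa was -0.45 for Trpc2 and -0.39 for H2-M9, without overlap, while with letters a and c these groups overlapped.

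Without normalization between arrays the separation remained for Trpc2 between occluded and open mucosa and was lost in the other comparisons with the occluded side. On that scale Trpc2 lay between 8.20 and 8.98 in occluded, 7.37 and 8.14 in open and 7.91 and 8.27 in normal replicates, so that occluded lay above open and overlapped with normal. H2-M9 lay between 9.25 and 10.14 in occluded, 8.63 and 9.52 in open and 8.94 and 9.30 in normal replicates, and overlapped with both. Array medians were 146 to 269 on the occluded side, 123 to 242 on the open side and 131 to 274 in normal mucosa.

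The alternatives that changed the block, the probes or the groups fitted, or the floor left the differences of both genes exactly as they were, and the others changed their size. Over all alternatives, Trpc2 differed by 0.69 to 1.01 between occluded and open mucosa, and H2-M9 by 0.58 to 1.02. Between occluded and normal mucosa Trpc2 differed by 0.33 to 0.59 and H2-M9 by 0.23 to 1.01. Open minus normal mucosa was -0.50 to -0.21 for Trpc2, and for H2-M9 it was above 0 without open replicate 3 and with arrays of letter c.

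**Figure D3:**
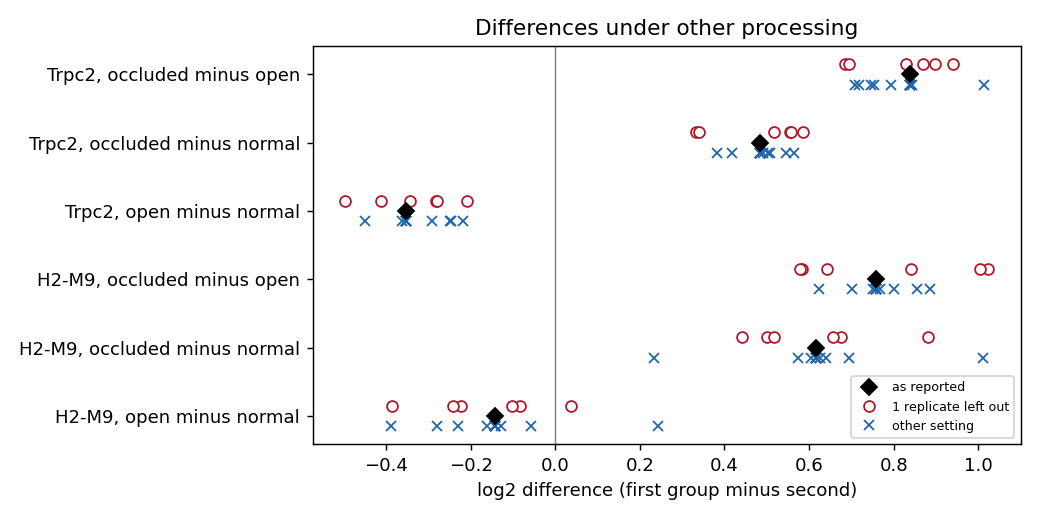
Log2 differences of Trpc2 and H2-M9 for the 3 pairs of groups, first group minus second, under each alternative setting, 1 point each, beside the value reported. Points that coincide with the reported value include settings that could not move it, and H2-M9 spreads from 0.23 to 1.01 for occluded minus normal.

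The other genes of the vomeronasal transduction pathway had a median difference near 0. Of 17 measured genes of this list besides Trpc2, limma called 0 in any of the 3 comparisons, and 1 had an unadjusted p under 0.05, between occluded and open mucosa. That gene was Pde4a, a cAMP phosphodiesterase that is also a gene of main olfactory neurons, at 0.72 ± 0.20 (limma adjusted p = 0.42). The median difference between occluded and open mucosa was 0.0013 over the 17 genes, beside 0.0079 over all 16637 named genes, with 9 above 0. Gnai2, the G protein subunit of apical neurons, averaged 12.40 ± 0.89 in occluded, 12.83 ± 0.30 in open and 12.82 ± 0.15 in normal mucosa (SD, n = 3 each), and its occluded replicate 1, at 11.37, lay apart from replicates 2 and 3, at 12.86 and 12.98. A dimmer Gnai2 probe differed by 0.0016 between occluded and open and by 0.52 between occluded and normal mucosa, where the brighter one differed by -0.43 and -0.42. Gnao1, its counterpart in basal neurons and a gene of many other neurons, differed by 0.13 ± 0.16 (SE) between occluded and open mucosa, and Gng8, a G protein gamma subunit, by -0.22 ± 0.24. Plcb2, the phospholipase C of taste and related chemosensory cells, differed by 0.03 ± 0.20, and Kcnn3, a calcium-activated potassium channel, by 0.47 ± 0.24. None of these passed limma's test, and between occluded and open mucosa Kcnn3 had the smallest adjusted p of them, 0.90.

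The relatives of H2-M9 gave no call either. Of 7 other H2-Mv genes measured, limma called 0 in each comparison and 0 had an unadjusted p under 0.05. Their median difference was 0.08 between occluded and open mucosa and -0.11 between occluded and normal mucosa. H2-M1, whose upstream sequence is printed beside that of H2-M9, lay above the noise limit on 23 of 27 arrays. It averaged 4.66 ± 0.38 in occluded, 4.58 ± 0.27 in open and 4.06 ± 0.90 in normal mucosa (SD, n = 3 each), and differed by 0.08 ± 0.33 (SE) between occluded and open mucosa, where H2-M9 differed by 0.76 ± 0.21. Against normal mucosa H2-M1 differed by 0.61 ± 0.42. H2-M10.5 and H2-M10.4 lay above the noise limit on 3 and 4 of 27 arrays. Genes of this family share sequence, so which of them a probe reads is uncertain. Among 13 measured genes of other MHC class I molecules, classical and not, and of antigen presentation, 0 were called and 0 had an unadjusted p under 0.05. Their median difference was -0.10 between occluded and open mucosa, with 2 above 0.

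**Figure D4:**
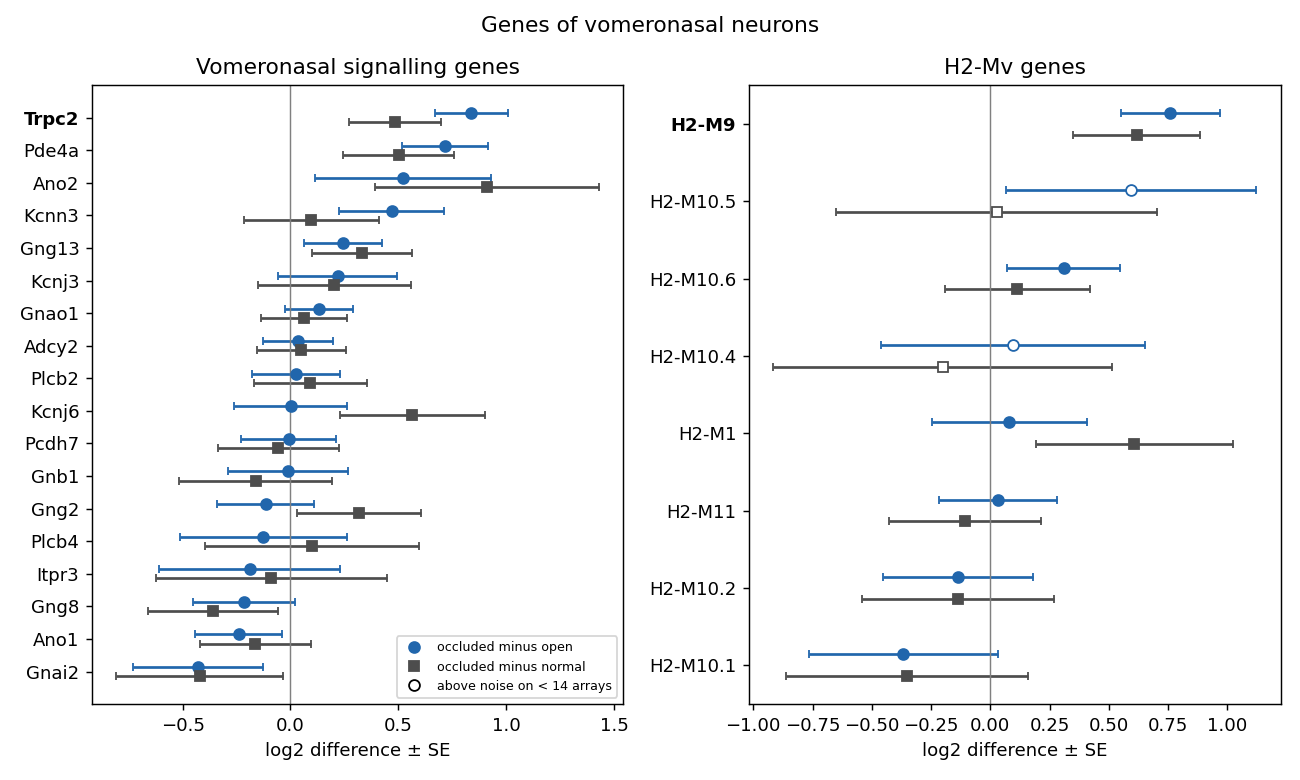
Log2 differences ± SE of the vomeronasal signalling genes (left) and the H2-Mv genes (right), for occluded minus open (circles) and occluded minus normal (squares). Hollow symbols are probes above the noise limit on fewer than 14 of 27 arrays. For occluded minus open Trpc2 lies at 0.84 and H2-M9 at 0.76. For occluded minus normal Ano2 at 0.91, Kcnj6 at 0.57 and Pde4a at 0.50 lie above Trpc2 at 0.48. Ano2, which is also listed with the mature olfactory neuron genes, had normal replicates of 9.29, 11.15 and 11.58. Kcnj6 lay above the noise limit on 19 of 27 arrays.

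The receptor genes that define vomeronasal neurons were in part above the noise limit and in part near it. Of 83 type 1 receptor genes (Vmn1r), 51 lay above the noise limit on at least 14 of 27 arrays and 28 on all. Among all 16637 named genes at least 13548 met the rule of 14 arrays, a larger share. Meeting it therefore does not by itself show that a receptor was expressed. Of 5 type 2 receptor genes (Vmn2r), 3 did so on at least 14 arrays and 1 on all, while Vmn2r1, the coreceptor of many basal neurons, did so on 1 array. Of 5 formyl peptide receptor genes, Fpr1 and Fpr2, which immune cells also use, were above it on all 27 arrays, Fpr-rs4 on 11, Fpr-rs6 on 3 and Fpr-rs3 on 0. The median differences of the receptors were near 0. The median difference between occluded and open mucosa was -0.01 for type 1 receptors, with 40 of 83 above 0, and limma called 0 (8 with an unadjusted p under 0.05, 3 of them higher). For type 2 receptors the median difference was 0.03, with 0 called and 0 with an unadjusted p under 0.05. The summed intensity of the type 1 receptors was 7217 to 11582 in occluded, 7367 to 11063 in open and 8870 to 10258 in normal replicates. That of the other H2-Mv genes was 176 to 301 in occluded, 185 to 307 in open and 182 to 279 in normal replicates. That vomeronasal neurons were the source of the Trpc2 and H2-M9 signal rests on what these genes are known for and was not tested.

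Genes of mature main olfactory neurons had the same order of groups as Trpc2 and H2-M9, as a median. Of 12 measured, 6 had occluded replicates above all open ones and 4 had them above all normal ones. Of all probes, 3.76% and 3.57% did. Limma called 0 of them, with an unadjusted p under 0.05 for 6 between occluded and open and 1 between occluded and normal mucosa. Their median difference was 0.40 between occluded and open and 0.35 between occluded and normal mucosa, beside 0.0079 and 0.01 over all named genes. Their summed intensity was 274821 to 292996 in occluded, 216850 to 227660 in open and 232619 to 240449 in normal replicates, with 2 of the 12 saturated on at least 1 array. Slc24a4, a sodium-calcium exchanger of these neurons, differed by 0.55 ± 0.17 between occluded and open mucosa (limma adjusted p = 0.52). Cnga2, a subunit of the olfactory transduction channel and saturated on some arrays, differed by 0.53 ± 0.17 (SE) between occluded and open mucosa (limma adjusted p = 0.55). Ric8b, which helps fold the G protein of olfactory transduction, differed by 0.86 ± 0.24 (limma adjusted p = 0.41). Between occluded and open mucosa 11 of the 12 genes lay above 0, and between occluded and normal mucosa 10 did. Pde1c lay below 0 in both comparisons, at -0.18 and -0.33. Omp, a marker of these neurons, was saturated on 26 of 27 arrays with its brightest probe. A dimmer Omp probe, not saturated, differed by -0.02 and -0.06. Gucy1b2, the marker of a class of Trpc2 cells of the main epithelium, averaged 4.66 ± 0.61 in occluded, 3.87 ± 1.09 in open and 4.39 ± 0.75 in normal mucosa (SD, n = 3 each) and lay above the noise limit on 21 of 27 arrays. It differed by 0.79 ± 0.47 (SE) between occluded and open mucosa (limma adjusted p = 0.93).

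Relative to the mean of the 10 olfactory neuron genes that were not saturated on any array, which leaves out Omp and Cnga2, the excess of Trpc2 and H2-M9 was smaller. That mean was 12.26, 12.35 and 12.39 in occluded, 11.90, 11.98 and 11.98 in open and 11.82, 11.98 and 12.11 in normal replicates. After it was subtracted, Trpc2 differed by 0.45 between occluded and open mucosa, without overlap, and by 0.12 between occluded and normal mucosa, with overlap. H2-M9 differed by 0.38 between occluded and open and by 0.25 between occluded and normal mucosa, with overlap in both. Over the 9 replicates the correlation with this mean was 0.78 for Trpc2 and 0.68 for H2-M9, and it was 0.13 and -0.26 after group means were removed. The part of the neuron genes in the differences of Trpc2 and H2-M9 was not tested.

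**Figure D5:**
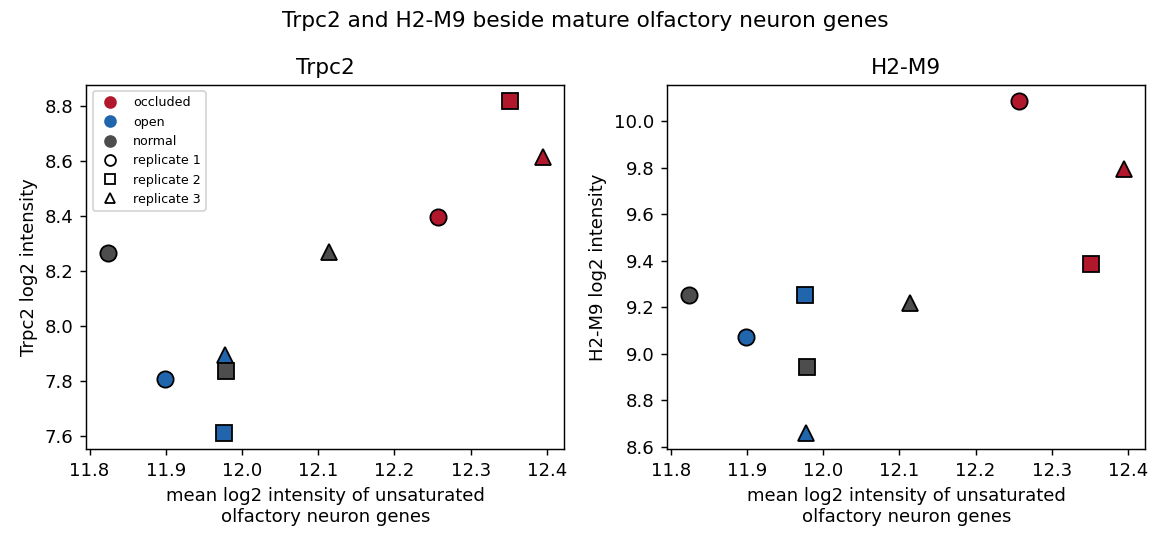
Log2 intensity of Trpc2 (left) and H2-M9 (right) against the mean log2 intensity of 10 unsaturated olfactory neuron genes, 1 point for each of 9 replicates, coloured by group. The 3 occluded replicates have the highest neuron mean, at 12.26 to 12.39, and the highest level of both genes.

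Genes of gland secretion, 6 measured with 4 saturated on at least 1 array, gave 0 calls and 0 unadjusted p-values under 0.05 in the 3 comparisons. Their median difference was -0.60 between occluded and open and -0.55 between occluded and normal mucosa. Lcn3 and Lcn4, which encode lipocalins secreted by glands of the vomeronasal organ and septum, differed widely between replicates of 1 group and were saturated on 6 and 3 arrays. Lcn4 had a log2 intensity of 4.74, 15.81 and 11.03 in occluded, 11.56, 13.28 and 14.79 in open and 7.55, 15.98 and 11.89 in normal replicates. Lcn3 had 11.06, 15.999 and 12.23 in occluded, 12.89, 14.14 and 15.46 in open and 11.09, 15.99 and 13.50 in normal replicates. Both were highest in replicate 2 of the occluded and normal groups and in replicate 3 of the open group. Trpc2 was likewise highest in replicate 2 of the occluded group and replicate 3 of the open group, but lowest in normal replicate 2, while H2-M9 was lowest in occluded replicate 2, open replicate 3 and normal replicate 2.

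Other members of the channel family and genes beside the 2 loci were set next to them. Of 25 TRP channel genes besides Trpc2, limma called 0 and 1 had an unadjusted p under 0.05 between occluded and open mucosa, namely Trpc4, at -0.40 ± 0.16 (SE, adjusted p = 0.75). Trpm5, the channel of solitary chemosensory and microvillous cells, differed by 0.16 ± 0.17 with its brightest probe and by 0.56 ± 0.16 with a dimmer one (limma adjusted p = 0.47). Of 7 measured genes listed as neighbours of Trpc2, 0 were called and 2 had an unadjusted p under 0.05 between occluded and open mucosa. These were Art5, a mono-ADP-ribosyltransferase, at 0.53 ± 0.22 (limma adjusted p = 0.77) and Numa1, a spindle protein, at -0.48 ± 0.13 (adjusted p = 0.39). Of 14 measured neighbours of H2-M9, 0 were called and 0 had an unadjusted p under 0.05. These neighbours include H2-Mv genes already counted above, among them H2-M1.

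Among the remaining lists, 10 transcription factor genes of vomeronasal neurons had a median difference of 0.09 between occluded and open and 0.04 between occluded and normal mucosa. For 5 formyl peptide receptor genes these medians were 0.17 and 0.18, and for 6 genes of Trpc2 cells of the main epithelium besides Trpc2 they were 0.25 and 0.13. The latter list shares Cnga2 and Adcy3 with the mature olfactory neuron list. Its members besides these and Gucy1b2 differed between occluded and open mucosa by -0.01 (Gucy1a1, brightest probe), -0.18 (Emx1) and 0.17 (Cacna1a). The medians were 0.16 and 0.12 for 9 genes of microvillous cells and -0.03 and -0.04 for 6 genes of the Grueneberg ganglion and guanylyl cyclase D neurons. The supporting tissue gave -0.05 and 0.0079 for 8 sustentacular genes, -0.10 and -0.10 for 10 respiratory genes and -0.11 and 0.02 for 10 leukocyte genes. It gave 0.03 and -0.42 for 9 bone and cartilage genes and 0.03 and -0.0036 for 10 brain genes. Normal replicate 2 stood apart in Col2a1 (8.53, 13.33 and 9.23 in normal replicates 1 to 3, brightest probe) and Acan (7.56, 10.67 and 7.53). Trpc2 and H2-M9 had their lowest normal level in that replicate. Without it, occluded exceeded normal mucosa by 0.34 for Trpc2 and 0.52 for H2-M9. Whether these are linked was not tested. Limma called 0 genes of these 10 lists in the 3 comparisons, and an unadjusted p under 0.05 was found for H2-Aa of the leukocytes and for Cnga2 and Adcy3, all between occluded and open mucosa.

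Over the 9 replicates the correlation of Trpc2 with H2-M9 was 0.61, which includes the high occluded levels that both were selected on. Of 13548 other named genes, 518 (3.82%) correlated with Trpc2 at least as closely and 996 (7.35%) with H2-M9. After group means were removed the correlation of Trpc2 with H2-M9 was -0.40. The genes most like Trpc2 were Ech1, an enoyl-CoA hydratase family enzyme (r = 0.95), Tmem117 (r = 0.95), the palmitoyltransferase gene Zdhhc12 (r = 0.95), the inflammasome gene Nlrc4 (r = 0.94) and Serpinb7 (r = 0.94). Those most like H2-M9 were the glutamate receptor gene Gria3 (r = 0.97), Slc30a9 (r = 0.97), the transcription factor gene Sox14 (r = 0.96), Zswim4 (r = 0.96) and the growth factor gene Pgf (r = 0.96). These are the highest of 13548 correlations over 9 values that share individuals, and the differences of these genes between occluded and open mucosa were 0.12 to 0.96. None of the 10 is a member of a gene list used here.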

How the data were processed

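The authors deposited a table of linear probe intensity, 29922 probes by 27 single-colour arrays. Per the labels' protocols, amplified RNA carrying amino-allyl UTP was conjugated with Cy5; scanner, background correction and any scaling are not stated in the labels or file. Here, values of 0 or less were raised to the smallest positive one (0.912), log2 was taken, quantile normalization was applied across arrays, and arrays a to c were averaged. All probes were fitted together with limma (version 3.58.1; R 4.3.3; statmod 1.5.0), 3 groups as fixed terms and individuals as a random block (estimated correlation 0.389), two-sided, with Benjamini-Hochberg adjustment at 0.05. The script was also run on simulated normal noise, which did not model low values, saturation or a deviation shared by equal numbers across groups. By the design text both sides come from the same individuals, so equal numbers were read as 1 individual; deviations from group means correlated at 0.52, -0.0044 and 0.14 in the 3 pairs. Equal numbers of normal mucosa, from other mice, correlated with occluded at 0.35, 0.07 and 0.0015 and with open at 0.39, 0.10 and 0.07, so number 1 deviated together in all groups, which the block by individual does not model. The labels name biological replicates without saying whether each is 1 mouse. The p-values therefore set a difference against the spread between these samples, which may not be that between single mice.

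Gene names came from the array annotation (21020 probes with 1 symbol, 0 with several, 8902 unnamed), of which 2728 symbols were updated through the GRCm38.p6 gene table of RefSeq; probe sequences were not used. A gene with several probes is given by the one of highest mean level. Members, tests and the 20 gene lists were chosen with earlier results of these data known. The text names both genes, the 5 genes most correlated with each (above the noise limit on at least 14 arrays, no predicted transcripts) and, from each list, genes called and up to 3 per comparison with the smallest p; the signalling and H2-Mv lists could be named in full. Fpr-rs3, Fpr-rs4, Fpr-rs6, Vmn2r1, Gucy1b2, Trpm5, Lcn3 and Lcn4 mark their lists and were partly picked with values in view. Omp, Pde1c, Bcl11b, Gucy1a1, Emx1 and Cacna1a were likewise named with values in view. Alternatives changed the block, normalization, array averaging, low values, dim probes, the groups fitted and single replicates.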

Additional observations from a re-analysis of the deposited data

How the results depend on the processing

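The 3 alternatives that used the arrays of 1 letter were chosen after the data were seen, and the others are those named with the processing. For H2-M9 the difference between occluded and normal mucosa was 0.23 with arrays of letter b and 1.01 with letter c, and open minus normal mucosa was -0.39 and 0.24 with the same letters; the cause was not tested. With 1 replicate left out, occluded minus open was 0.69 to 0.94 for Trpc2 and 0.58 to 1.02 for H2-M9, occluded minus normal 0.33 to 0.59 and 0.44 to 0.88, and open minus normal -0.50 to -0.21 and -0.39 to 0.04, the last without open replicate 3.

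The 66 probes called between occluded and open mucosa became 3 with no replicate block, 2 with a fixed replicate block over all 9 values and 0 with a fixed replicate block when the 6 occluded and open values were fitted alone. They became 0 without normalization between arrays, 37 with median centring, 142 with the 27 arrays fitted one by one and the replicate as a random block, and 14 with only the groups compared. Leaving out 1 replicate of either side gave 0 to 123: 0 without occluded or open replicate 1, 123 and 112 without replicate 2, and 37 and 41 without replicate 3, for the occluded and then the open side. The 2 probes called between occluded and normal mucosa became 0 with the fixed replicate block over 9 values, without normalization, with a floor of 16 and with only the groups compared. They became 5 with the median of the 3 arrays, 16 without the dimmest 50% of probes, 24 with an offset of 50 and 117 with the 27 arrays, and 0 to 1 with 1 replicate of either group left out. Of the listed genes, 1 was called between occluded and open mucosa (Numa1) and 2 between occluded and normal mucosa (Gnal and Numa1) with the 27 arrays, and 0 under every other alternative run. Some receptor and H2-Mv probes lay near the noise limit.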
